A study of Homo sapiens with 6 samples.

Results

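Genes for solute carriers, pumps and ion channels form 31 of the 995 genes that the authors deposited for STYK1-depleted pancreatic cancer cells. They were chosen by symbol, with earlier results of these data known. The symbols cover the solute carrier (SLC), ATP-binding cassette (ABC) and ATP-driven pump (ATP) families. They also cover the potassium, sodium, calcium, chloride, TRP, anoctamin, TMC, P2X and aquaporin channel families. The name patterns matched 35 genes. A pair of antisense transcripts was set aside by the same rule, as were SLC7A11 and ABCC3, which it lists by name. Both of these listed genes had a higher level after STYK1 depletion. RNA was taken from PANC-1, a human pancreatic ductal carcinoma line, in 3 control and 3 shSTYK1 libraries. The methods call the 3 samples of each group biological replicates. Control and shSTYK1 cells share the PANC-1 background and poly(A) selection. The shSTYK1 cells carry a stably integrated lentiviral pLKO.1-puro vector with an shRNA against STYK1, a membrane-bound kinase, and were selected with puromycin. Resistant clones were then isolated and expanded, so that a group can stem from few clones. The sources used here do not state which STYK1 shRNA the sequenced cells carried or what the control cells received.

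Carriers, pumps and channels set the ion gradients, pH, volume and nutrient supply of a cell. Pumps spend ATP to build the sodium, potassium and calcium gradients, exchangers and cotransporters use those gradients to move other solutes, and channels let ions run down them. In the ducts of the pancreas such proteins on the apical and basolateral membranes secrete bicarbonate, chloride and water, and carcinoma cells also rely on them to take up amino acids and to remove acid.

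The deposited table gives a z-score per gene and library and no expression levels. The levels used below were recovered from the z-scores, to 2 decimals, by a search for 6 values whose log(value + 1) has the deposited z-scores, and all 31 genes were solved. The unit of these levels is not stated, so the level of a gene is read against its own level in other libraries. Only the filter, the cut-offs on level, the sums per library and the scalings take all genes on a common scale. The table is a selection of genes that differ between these same libraries, as its values show: the z-scores of the groups do not overlap in 93.7% of its genes. Because of this selection a small p-value was likely for most genes below, and it describes the gene without testing it afresh. STYK1 itself has no row, so its depletion could not be checked. Of 9 ductal and epithelial markers, CDH1 alone is in the table (0.1 to 0.28 in control, 0.85 to 0.94 in shSTYK1 libraries), and of 4 mesenchymal markers CDH2 alone is (22.84 to 24.81 in control, 2.58 to 3.05 in shSTYK1 libraries). For the HEK293T packaging cell line, the genes looked for were LIN28B, SALL4, NEFL, NEFM and TBX1, whose specificity was not tested. The table holds 3 of these 5, 1 of 6 fibroblast markers, 1 of 4 endothelial markers and 0 of 5 leukocyte markers. All of those markers that are present were lower in shSTYK1 cells, beside 50.2% of all genes of the table. Their part in the values below was not tested.

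STYK1 depletion went with a near even split of the 31 transport genes: by the mean z-score, 15 had a lower level (beside 50.2% of all genes of the table) and 16 a higher level (beside 49.8%). The groups did not overlap in 29 of them, beside 93.7% of all genes. Of the 31, 25 passed the filter for low values (a level of at least 1 in at least 3 libraries). With limma on log2(value + 1) and Benjamini-Hochberg adjustment over the 740 genes of the table that passed, 11 transport genes had an adjusted p-value under 0.05 and were lower, and 13 were higher. Over all genes tested, 44.5% were called lower and 51.2% higher (95.7% either way), so that the counts of transport genes describe them and set them apart from no other genes of this selected table. Of the tested genes, 5 (ABCA1, ABCA13, KCNS3, SLC37A1 and SLC2A3P1) reached a level of 1 in the libraries of the higher group only and so had to differ to pass the filter. The median log2 difference of the lower transport genes was -0.83, beside -0.98 for the lower genes of the whole table, and that of the higher ones was 0.87, beside 0.88. An absolute log2 difference of at least 1 was reached by 35.5% of the transport genes and by 42.0% of all genes with levels. With 3 libraries against 3, a two-sided exact permutation test of 1 gene has 0.1 as its smallest p.

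TRPA1 and CACNA1G, which let calcium into the cell, and SLC8A1, which removes it, were all called lower. TRPA1 (ENSG00000104321, chromosome 8 from 72019917 to 72075617 in GRCh38), a cation channel opened by electrophiles and oxidants, had levels of 5.51, 6.22 and 6.34 in the control libraries and 1.3, 1.32 and 1.16 in the shSTYK1 libraries. All 3 shSTYK1 libraries lay below all control libraries, with little spread in either group. The level fell from 6.02 ± 0.449 to 1.26 ± 0.0872 (SD, n = 3 per group), a change of -1.63 on the log2 scale (SE 0.118, limma adjusted p = 1.76e-05). These are bulk libraries, in which fewer cells that express a gene and less RNA of it per cell cannot be told apart. SLC8A1 (ENSG00000183023, chromosome 2 from 40097270 to 40611053), the sodium-calcium exchanger that carries calcium out of the cell, had levels of 7.86, 8.59 and 8.95 in control and 2.28, 2.51 and 1.98 in shSTYK1 libraries. It fell from 8.47 ± 0.555 to 2.26 ± 0.266 (limma log2 fold change -1.54, adjusted p = 2.67e-05), 3.75 times lower by the ratio of the group means.

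CACNA1G (ENSG00000006283, chromosome 17 from 50561068 to 50627474), the pore of a T-type voltage-gated calcium channel, had levels of 2.33, 3.34 and 2.28 in control and 0.72, 0.79 and 1.16 in shSTYK1 libraries. The highest shSTYK1 library stayed below the lowest control library, and the log2 fold change was -0.94 (limma adjusted p = 0.000744). SCN9A, which encodes the pore of the sodium channel Nav1.7, was below the filter. It had levels of 0.84, 0.82 and 0.86 in the control libraries and 0.15, 0.01 and 0.13 in the shSTYK1 libraries, which do not overlap. Fitted without a filter, where 92.1% of all genes of the table are called, its log2 difference was -0.75 (limma adjusted p = 0.000418).

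Both sodium-proton exchangers were called higher, while the sodium-calcium exchanger SLC8A1 was called lower. SLC9A7 (ENSG00000065923, chromosome X from 46599252 to 46759172), an exchanger of the trans-Golgi network and endosomes, had levels of 23.31, 21.27 and 24.51 in control and 43.08, 46.33 and 44.81 in shSTYK1 libraries. Its groups lie far apart for their spread: the level rose from 23.03 ± 1.64 to 44.7 ± 1.63 (SD, n = 3 per group), 1.94 times, a change of 0.93 on the log2 scale (SE 0.118, limma adjusted p = 0.000187). SLC9A2 (ENSG00000115616, chromosome 2 from 102619707 to 102711318), an exchanger of the plasma membrane of epithelial cells that removes protons, had levels of 2.08, 3.74 and 2.74 in control and 7.37, 6 and 6.62 in shSTYK1 libraries. It rose by 1.01 on the log2 scale (limma adjusted p = 0.000835).

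Of 4 potassium channel genes, 1 was called lower, 2 were called higher and KCNQ1 was below the filter. KCNS3 (ENSG00000170745, chromosome 2 from 17877847 to 18361616), a silent subunit that forms channels only with Kv2 subunits, had levels of 4.29, 3.98 and 2.97 in control and 0.36, 0.39 and 0.22 in shSTYK1 libraries. It had the largest ratio of group means among these 4 genes that passed the filter, 11.6 times lower in shSTYK1 cells, and a change of -1.83 on the log2 scale (limma adjusted p = 2.61e-05). KCNIP3 (ENSG00000115041, chromosome 2 from 95297304 to 95386083), a calcium-binding protein that attends Kv4 channels and also acts as a transcriptional repressor known as DREAM, had levels of 4.16, 6.05 and 3.31 in control and 9.12, 12.37 and 9.40 in shSTYK1 libraries. It rose from 4.51 ± 1.40 to 10.3 ± 1.80, a change of 1.06 on the log2 scale (limma adjusted p = 0.00142).

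KCNK15, of the 2-pore-domain family, had levels of 1.82, 2.18 and 1.61 in control and 3.24, 4.56 and 2.92 in shSTYK1 libraries. It changed by 0.66 on the log2 scale (limma adjusted p = 0.00496), and with libraries scaled by the median of ratios the change was 0.37 (limma adjusted p = 0.0563). KCNQ1, the pore of a channel that recycles potassium at epithelial membranes, had levels of 0.09, 0.03 and 0.16 in control and 0.97, 0.67 and 0.81 in shSTYK1 libraries. The groups are separate and all 6 libraries lie below 1, and without a filter the log2 difference was 0.73 (limma adjusted p = 0.000712).

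Among genes for anions and water, SLC4A11 was lower and AQP3 was higher. SLC4A11 (ENSG00000088836, chromosome 20 from 3227417 to 3239559), a member of the bicarbonate transporter family that conducts protons or hydroxide ions and is known from the corneal endothelium, had levels of 28.68, 63.03 and 29.45 in control and 14.22, 8.33 and 7.29 in shSTYK1 libraries. Control replicate 2 is more than 2 times as high as the other control libraries, yet every control library lies above every shSTYK1 library. The level fell from 40.4 ± 19.6 to 9.95 ± 3.74 (SD, n = 3 per group), a change of -1.87 on the log2 scale (SE 0.342, limma adjusted p = 0.00102), and without control replicate 2 it was -1.51 (limma adjusted p = 0.00214). ANO1, the calcium-activated chloride channel of secretory epithelia, had levels of 0.81, 0.40 and 0.36 in control and 1.04, 1.17 and 0.79 in shSTYK1 libraries. It was below the filter and its groups overlap, since control replicate 1 lies above shSTYK1 replicate 3 (exact permutation test, two-sided p = 0.2). Without a filter, its log2 difference was 0.40 (limma adjusted p = 0.0323).

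AQP3 (ENSG00000165272, chromosome 9 from 33441154 to 33447633), an aquaporin that passes water, glycerol and hydrogen peroxide, had levels of 1.59, 1.18 and 1.03 in control and 2.84, 2.32 and 2.11 in shSTYK1 libraries. All shSTYK1 libraries were above all control libraries, with a change of 0.60 on the log2 scale (limma adjusted p = 0.00457). With median-of-ratios scaling, drawn from these selected genes alone, the value was 0.33 (limma adjusted p = 0.0711). The call for AQP3 therefore depends on the scaling between libraries.

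SLC30A1 is the only gene grouped under metals among the 31. It encodes ZnT1, which exports zinc across the plasma membrane and is known as a target of the zinc-sensing factor MTF-1. SLC30A1 (ENSG00000170385, chromosome 1 from 211571568 to 211578742) had levels of 25.40, 23.68 and 32.61 in control and 65.83, 46.02 and 65.46 in shSTYK1 libraries. The lowest shSTYK1 library, replicate 2, stayed above the highest control library. The level rose from 27.2 ± 4.74 to 59.1 ± 11.3 (SD, n = 3 per group), 2.17 times, a change of 1.08 on the log2 scale (SE 0.189, limma adjusted p = 0.000817). MTF-1 binds metal response elements, whose core is TGCACNC or TGCGCNC, where N is any base. The windows below are RefSeq promoters (GRCh38.p14, minus strand, 250 bases before to 50 after the start) of SLC30A1 (chr1:211579112-211579411), shown for this known link to zinc, and of SLC9A7 (chrX:46759069-46759368), shown as the window with the most matches among the transport genes. The RefSeq start of SLC30A1 lies upstream of the GENCODE 29 gene end given above. Capitals mark each match on either strand.
SLC30A1: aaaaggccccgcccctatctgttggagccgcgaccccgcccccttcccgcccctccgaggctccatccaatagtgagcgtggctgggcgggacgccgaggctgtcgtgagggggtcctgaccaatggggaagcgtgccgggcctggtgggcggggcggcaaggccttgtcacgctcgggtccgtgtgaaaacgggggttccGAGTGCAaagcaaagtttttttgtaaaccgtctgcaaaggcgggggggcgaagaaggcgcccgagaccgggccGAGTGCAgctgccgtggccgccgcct
SLC9A7: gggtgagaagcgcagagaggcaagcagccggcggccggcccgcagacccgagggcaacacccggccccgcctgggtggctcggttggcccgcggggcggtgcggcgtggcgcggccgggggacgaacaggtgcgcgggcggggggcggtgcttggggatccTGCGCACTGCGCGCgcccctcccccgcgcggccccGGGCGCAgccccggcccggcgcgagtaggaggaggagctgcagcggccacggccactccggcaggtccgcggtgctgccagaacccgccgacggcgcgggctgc
The SLC30A1 window holds 2 matches, both GAGTGCA, which start at positions 202 and 275 from its 5′ end. The SLC9A7 window holds 3 matches in a GC-rich stretch, and 2.3% of all 35116 RefSeq windows hold at least 3, while 8.6% hold at least 2. RefSeq windows were found for 20 of the 31 transport genes. Of their 26 windows, 11 hold at least 1 metal response element match, beside 29.6% of all windows. Those 11 are 4 of the 12 windows of lower genes and 7 of the 14 windows of higher genes. By gene, 4 of 7 lower and 7 of 13 higher genes have such a match. A window of SLC8A1, a lower gene, holds 2, as many as the window of SLC30A1. The TCF/LEF core of Wnt target genes was searched on both strands as CTTTGAA, as its variant CTTTGAT, as the further variant CTTTGTA and as the last variant CTTTGTT, and at least 1 of them occurs in 13.8% of all windows. Among the transport genes it occurs in a window of SLC8A1 and a window of SLC25A21, 2 of the 12 windows of lower genes, and in 0 of the 14 windows of higher genes. SLC25A21 had no call and counts as lower by its mean z-score alone, and the other windows of SLC8A1 hold no TCF/LEF match. A match of letters is not a binding site, and no binding was measured.

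**Figure D1:**
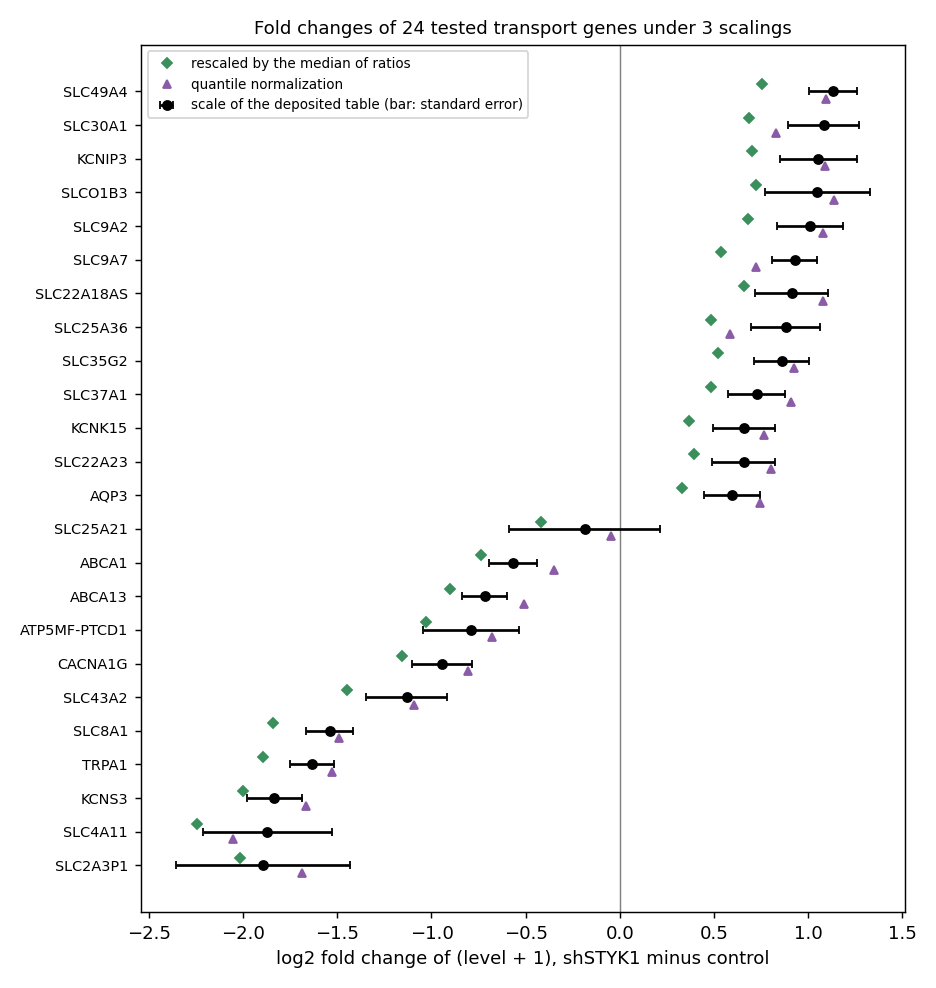
Log2 fold change (shSTYK1 minus control) of level + 1 for 24 transport genes that passed the filter. Black points with standard errors are on the scale of the deposited table, green diamonds follow rescaling by the median of ratios and purple triangles follow quantile normalization. All 24 genes shown keep their direction under the 3 scalings, and SLC25A21 has a standard error that spans 0.

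Of the 3 amino acid carrier genes among the 31, SLC43A2 was called lower and the other two were below the filter. The cystine carrier gene SLC7A11, which the name rule set aside, was higher in shSTYK1 cells (limma log2 fold change 1.53, adjusted p = 0.000127). SLC43A2 (ENSG00000167703, chromosome 17 from 1569267 to 1628886), the LAT4 carrier that lets leucine, phenylalanine and other large neutral amino acids leave the cell, had levels of 8.30, 10.53 and 6.55 in control and 2.64, 4.51 and 2.83 in shSTYK1 libraries. It fell from 8.46 ± 1.99 to 3.33 ± 1.03, a change of -1.13 on the log2 scale (SE 0.215, limma adjusted p = 0.00123). SLC6A15, a sodium-coupled carrier of branched-chain amino acids and proline, was below the filter, at 0.68, 0.69 and 1.00 in control and 0, 0.02 and 0 in shSTYK1 libraries. SLC7A2, a carrier of arginine and lysine, was at 0.19, 0.15 and 0.14 in control and 0.07, 0 and 0 in shSTYK1 libraries. Without a filter, limma gave SLC6A15 an adjusted p of 0.000403 and SLC7A2 one of 0.0949.

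The genes grouped under sugars moved both ways, and the lower one is a pseudogene. SLC35G2 (ENSG00000168917, chromosome 3 from 136818647 to 136855892), an orphan of the nucleotide sugar transporter family, had levels of 4.12, 3.06 and 3.07 in control and 6.50, 6.64 and 7.85 in shSTYK1 libraries. It changed by 0.86 on the log2 scale (limma adjusted p = 0.000704). SLC37A1, of the sugar phosphate exchanger family of the endoplasmic reticulum, had levels of 0.83, 0.96 and 0.85 in control and 2.17, 2.68 and 1.58 in shSTYK1 libraries (limma log2 fold change 0.73, adjusted p = 0.00215). SLC2A3P1 (ENSG00000253861, chromosome 5 from 168552277 to 168553727) is a processed pseudogene of the glucose transporter gene SLC2A3, with levels of 3.40, 8.32 and 1.22 in control and 0.13, 0.56 and 0 in shSTYK1 libraries. The control libraries of SLC2A3P1 are the most scattered relative to their mean among the transport genes with a call, and its log2 fold change of -1.90 has a standard error of 0.463 (limma adjusted p = 0.00437). It lies within PANK3 on the same strand, and 100% of its 100-base windows occur in PANK3 transcripts, so its reads cannot be told apart from those of PANK3, a pantothenate kinase gene that has no row in the table.

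Of the 4 genes grouped under organic ions, the carrier genes SLCO1B3 and SLC22A23 and the antisense gene SLC22A18AS were called higher, and SLC22A15 was below the filter. SLCO1B3 (ENSG00000111700, chromosome 12 from 20810702 to 20916911), a hepatic uptake carrier of bile acids and drugs that is also known as an altered transcript in carcinomas, had levels of 1.77, 4.33 and 2.80 in control and 7.10, 9.38 and 4.92 in shSTYK1 libraries. It rose from 2.97 ± 1.29 to 7.13 ± 2.23, a change of 1.05 on the log2 scale (SE 0.280, limma adjusted p = 0.00680). Of its 100-base windows, 52.1% also occur in AC011604.2, an overlapping gene on the same strand. SLC22A23, an orphan of the organic ion family, had levels of 1.34, 1.82 and 1.00 in control and 2.24, 2.96 and 3.05 in shSTYK1 libraries (limma log2 fold change 0.66, adjusted p = 0.00522).

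SLC22A18AS, a gene antisense to the carrier gene SLC22A18 that bears its name without being a carrier, had levels of 1.05, 1.04 and 0.60 in control and 3.53, 1.86 and 2.45 in shSTYK1 libraries. It changed by 0.91 on the log2 scale (limma adjusted p = 0.00226). It lies on chromosome 11 near KCNQ1, the nearest gene of the table, 0.0387 Mb away. SLC22A15, below the filter, was at 0.06, 0 and 0 in control and 0.34, 0.10 and 0.13 in shSTYK1 libraries (limma without a filter, adjusted p = 0.0998).

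Both ABC transporters of lipids were lower. ABCA1 (ENSG00000165029, chromosome 9 from 104781002 to 104928237), which loads cholesterol and phospholipid onto apolipoprotein A-I, had levels of 1.54, 1.29 and 1.07 in control and 0.47, 0.58 and 0.59 in shSTYK1 libraries. The log2 fold change was -0.57 (limma adjusted p = 0.00289). ABCA13, a very large member of the same subfamily, had levels of 1.54, 1.81 and 1.77 in control and 0.73, 0.52 and 0.69 in shSTYK1 libraries (limma log2 fold change -0.72, adjusted p = 0.000700). The 2 genes fell by 2.38 and 2.64 times by the ratio of group means, with separate groups in each.

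SLC49A4 and SLC25A36, carriers of organelle membranes, were called higher. SLC49A4 (ENSG00000138463, chromosome 3 from 122794795 to 122881139), a carrier of the lysosomal membrane, had levels of 7.84, 7.72 and 8.22 in control and 20.35, 16.21 and 19.44 in shSTYK1 libraries. It rose from 7.93 ± 0.261 to 18.7 ± 2.18 (SD, n = 3 per group), a change of 1.13 on the log2 scale (SE 0.130, limma adjusted p = 0.000119). SLC25A36 (ENSG00000114120, chromosome 3 from 140941830 to 140980961), which carries pyrimidine nucleotides into mitochondria, had levels of 33.09, 34.56 and 42.84 in control and 76.02, 53.65 and 78.10 in shSTYK1 libraries. It rose from 36.8 ± 5.26 to 69.3 ± 13.6, 1.88 times (limma log2 fold change 0.88, adjusted p = 0.00195).

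SLC25A21, the mitochondrial carrier of oxodicarboxylates, was the tested transport gene without a call. It had levels of 1.80, 2.47 and 1.81 in control and 0.91, 4.49 and 0.77 in shSTYK1 libraries, so that shSTYK1 replicate 2 lies above all control libraries and the other two below them. The log2 fold change was -0.19 (limma adjusted p = 0.657), -0.71 without shSTYK1 replicate 2 (adjusted p = 0.00483) and 0.105 without shSTYK1 replicate 3 (adjusted p = 0.808). Antisense transcripts of SLC25A21-AS1 and PAX9 share 22.7% of its windows. ATP5MF-PTCD1, a read-through of an ATP synthase subunit gene and its neighbour, had levels of 1.56, 4.14 and 3.63 in control and 1.14, 1.19 and 1.51 in shSTYK1 libraries. Its call (limma log2 fold change -0.79, adjusted p = 0.0164) was lost without control replicate 2 (-0.60, adjusted p = 0.0627) and without control replicate 3 (-0.67, adjusted p = 0.0543), and 79.6% of its windows occur in PTCD1 or ATP5MF.

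**Figure D2:**
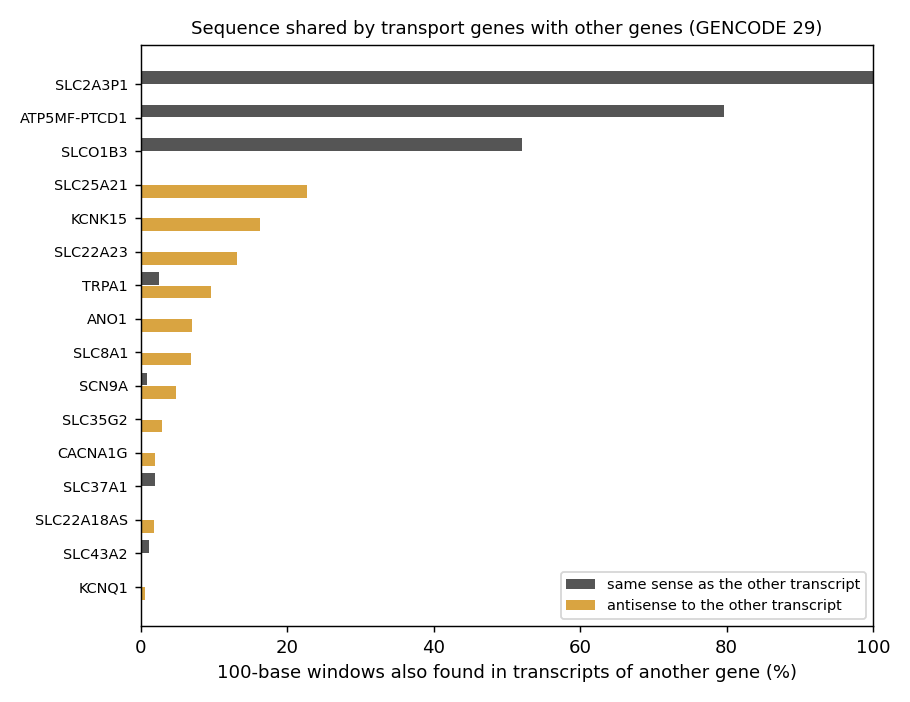
Share of the 100-base windows of each gene's GENCODE 29 transcripts that also occur in transcripts of another gene, in the same sense (grey) or antisense to it (yellow), for 16 transport genes that share any. SLC2A3P1 (100%), ATP5MF-PTCD1 (79.6%) and SLCO1B3 (52.1%) share most in the same sense among them.

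The shared windows, plotted by gene, show where a level may hold reads of a neighbour. Of the 31 transport genes, 14 share no window of 100 bases with another gene in either sense. Among them are SLC4A11, SLC30A1, SLC9A7, SLC9A2, SLC49A4, SLC25A36, KCNIP3, KCNS3, AQP3, ABCA1 and ABCA13. TRPA1 shares 9.51% of its windows antisense to MSC-AS1 and SLC8A1 shares 6.89% antisense to SLC8A1-AS1. KCNK15 shares 16.3% antisense to RIMS4, and SLC22A23 shares 13.1% antisense to PSMG4. The authors' handling of strand and of reads that match more than 1 gene is not stated.

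The 31 genes lie on 16 chromosomes. Of them, 19 have a nearest table gene that moved in the same direction, which is close to the 64.4% found over all 965 table genes that GENCODE 29 locates. The 3 transport genes on chromosome 3 were all higher in shSTYK1 cells. From SLC49A4 to SLC25A36 the table holds 24 genes, these included, and 24 of them were higher. Over the whole of chromosome 3, 66 of 88 table genes were higher, beside 49.8% of all genes of the table. The stretch was chosen after its values were seen. On chromosome X, where SLC9A7 lies, 52 of 76 table genes were higher. 

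**Figure D3:**
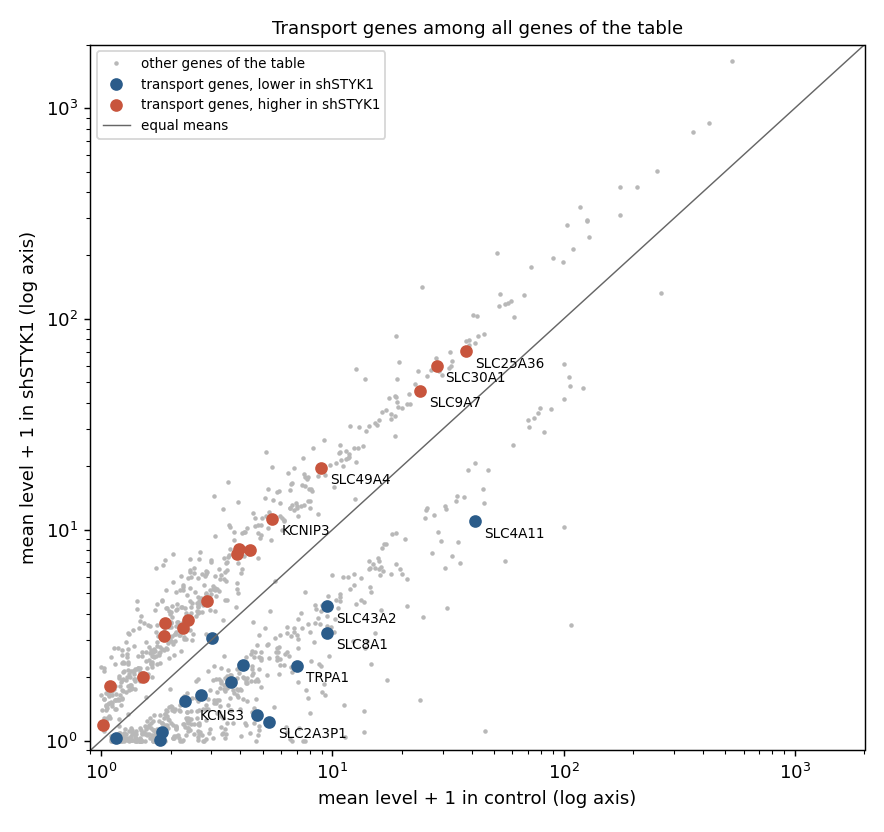
Mean level + 1 in shSTYK1 against control libraries (both axes log) for all recovered genes of the table (grey) and for the transport genes that were lower (blue) or higher (red) by the mean z-score. Both clouds leave a gap along the line of equal means, where SLC25A21 lies, and the other transport genes fall within the clouds.

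The size of the rises and falls depended on the scale between libraries. The recovered levels of the table sum to between 9481 and 10545 in control and between 14288 and 14790 in shSTYK1 libraries. The median-of-ratios factors were 0.856 to 1.034 in control and 1.177 to 1.227 in shSTYK1 libraries. These factors and the quantile normalization rest on this selected table alone, where 95.7% of tested genes were called. Both scalings can take up part of the difference between the groups, and the true scale between libraries is not known. Rescaling by the median of ratios lowered the log2 fold change of the genes tested by a median of 0.288, and 25 of 25 transport genes kept their direction. After it, 11 transport genes were called lower (45.0% of all genes tested were) and 11 higher (44.1%), and AQP3 and KCNK15 lost their calls. The rises of SLC30A1 (0.69, limma adjusted p = 0.0133), SLC35G2 (0.52, limma adjusted p = 0.0168), SLC25A36 (0.49, limma adjusted p = 0.0406), SLC22A23 (0.39, limma adjusted p = 0.0367) and SLC9A7 (0.54, limma adjusted p = 0.0105) remained past the threshold, while the falls of TRPA1, SLC8A1, KCNS3 and SLC4A11 were larger than before. Quantile normalization left all 24 calls in place.

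Channels, carriers and regulators of ion transport outside these name families were also found on both sides. A list of 248 such genes shares 21 with the table, of which 15 were tested, 5 were called lower and 10 higher, beside 44.5% and 51.2% of all genes tested (95.7% either way). The epithelial sodium channel was divided: SCNN1A, the alpha subunit, had levels of 2.52, 2.86 and 1.83 in control and 5.35, 8.14 and 5.45 in shSTYK1 libraries (limma log2 fold change 1.09, adjusted p = 0.000799). SCNN1B, the beta subunit, had levels of 1.21, 1.02 and 1.83 in control and 0.27, 0.28 and 0.22 in shSTYK1 libraries (-0.89, limma adjusted p = 0.000736). SCNN1B reached a level of 1 in the control libraries only and so had to differ to pass the filter. SCNN1G, the gamma subunit, was below the filter, at 0.57, 0.57 and 0.51 in control and 0.23, 0.08 and 0.22 in shSTYK1 libraries. SGK1, a kinase that keeps this channel at the membrane, fell from 46.1 ± 3.15 to 18.1 ± 3.92 (limma log2 fold change -1.32, adjusted p = 0.000192).

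Genes of intracellular calcium release and endolysosomal cation channels also had calls. ITPR1, the calcium release channel of the endoplasmic reticulum, fell from 9.01 ± 0.274 to 5.09 ± 0.531 (limma log2 fold change -0.72, adjusted p = 0.000698). CA8, a carbonic anhydrase-related protein that binds it and lacks enzyme activity, fell from 44.4 ± 3.55 to 12.4 ± 0.776 (-1.76, limma adjusted p = 1.51e-05). The endolysosomal channels MCOLN3 (1.55, adjusted p = 7.35e-05) and MCOLN2 (0.77, adjusted p = 0.00167) rose in the limma fit. CA2, the cytosolic carbonic anhydrase that feeds bicarbonate secretion, fell from 3.00 ± 0.111 to 0.42 ± 0.01 (-1.49, limma adjusted p = 1.89e-05). CA2, and TMEM150C and PANX2 named next, reached a level of 1 in the libraries of the higher group only. Their calls are thus of genes that had to differ to pass the filter. The remaining calls were higher: TMEM150C (1.27), CALHM2 (0.91), PANX2 (0.80), CATSPER1 (0.74), CA11 (0.66), NIPAL2 (0.51) and CA5B (0.50), of which CA11, NIPAL2 and CA5B lost their call under median-of-ratios scaling (adjusted p = 0.165, 0.428 and 0.270 from limma) and NIPAL2 and CA5B had overlapping groups.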

How the data were processed

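RNA-Seq libraries of PANC-1 cells, 3 control and 3 shSTYK1, were analysed. The authors deposited z-scores (a score per gene and library, mean 0 and SD 1 over the 6 libraries) for 995 genes. The submitters' processing notes name RSEM, a differential expression tool and GRCh38, and the sources used here give no aligner, expression unit, annotation or depth, so precision was read from the spread between libraries alone. To recover levels with 2 decimals, a whole-number search (numba 0.67.0 and numpy 2.4.6 under Python 3.11.15) ran with level + 1 up to 2000. It solved 994 genes and the recomputed z-scores differed by at most 5e-12. A level is known at best up to a whole-number factor of level + 1. Limits on the values were raised in steps, small values were tried first and the first solution was used. Whether another solution exists, with a different spread of log(level + 1), was not checked. That 1 was added before the logarithm is inferred.

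Groups follow the sample labels. They were compared with limma 3.58.1 (lmFit, eBayes, R 4.3.3) on log2(level + 1) in the 740 genes that reached a level of 1 in 3 or more libraries. The search and the model were tested on simulated data. Fold changes are on the log2(level + 1) scale, which understates changes of low genes. Symbols come from an Ensembl name table (923 of 995 genes had one). Positions and transcripts come from GENCODE 29, and promoters from RefSeq. Members were grouped by substrate from their gene family. Of the members, 1 is counted but not reported here. The others were all named, and levels per library are given for those with the largest changes in each group, with a mean of at least 10, or with relatives in the table. Levels of the remaining ones are also printed. The members and lists were chosen with earlier results of these data known. Alternatives were another pseudocount, scaling, filter, moderation, the z-scores themselves, a replicate block and each library left out. Plots were drawn with matplotlib 3.10.9.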

Additional observations from a re-analysis of the deposited data

How the results depend on the processing

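Of the 25 transport genes tested, 23 kept their direction and side of the threshold under median-of-ratios scaling (AQP3 and KCNK15 did not) and 25 did so with a pseudocount of 0.1, quantile normalization, no filter, or trend and robust moderation. A filter of at least 5 in 3 libraries left 4 transport genes called lower and 7 higher (130 and 194 of all genes), which follows from fewer genes tested. Requiring an absolute log2 fold change of at least 1 left 6 and 5 (235 and 175 of all genes). Leaving out each library in turn gave 10 to 12 transport genes lower and 13 higher, and 324 to 328 of all genes lower and 365 to 378 higher. SLC25A21 passed the threshold at -0.712 without shSTYK1 replicate 2 and turned to 0.05 without shSTYK1 replicate 1 and to 0.105 without shSTYK1 replicate 3. With the replicate block, 11 transport genes were lower and 13 higher (329 and 385 of all genes), and none of the 25 changed its call. The correlations of the deviations of same-numbered libraries were -0.225, 0.191 and 0.048 for replicates 1, 2 and 3. Whether libraries of the same number were handled together was not tested. Tested on the deposited z-scores with no filter, 14 transport genes were lower and 16 higher (484 and 465 of all genes). The depth of the libraries is unknown, and levels near 0 carry no counting limit. No sample group holds enough libraries for a test of outliers.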
